A study of Mus musculus with 29 samples.

Results

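The 9 genes described here encode the tip link of the hair bundle, the Usher proteins that anchor it and the mechanotransduction channel complex: Cdh23, Pcdh15, Ush1c, Ush1g, Cib2, Clrn1, Tmc1, Tmc2 and Tmie. They were taken by name from 22350 protein-coding genes of the mouse annotation, and every kept summit in the body of a gene or within 50 kb of it was counted in each of 9 peak lists. Of 175162 kept summits in the series, 166 lay in these windows, and joining those whose 300 bp surroundings touched gave 77 sites. The lists came from embryoid bodies of 6 mouse embryonic stem cell lines that all carried a doxycycline-inducible transgene, harvested at day 6, with 2 µg/ml doxycycline in the medium for the last 48 h. The line iAtoh1 expressed Atoh1, iG+A expressed Gfi1 and Atoh1, iP+A expressed Pou4f3 and Atoh1, iPou4f3 expressed Pou4f3, iG+P expressed Gfi1 and Pou4f3, and iGPA expressed all of Gfi1, Pou4f3 and Atoh1. Atoh1 was precipitated through a FLAG tag in 4 lines and Pou4f3 through a MYC tag in 4 lines, while Gfi1 was precipitated with an antibody to the protein in iGPA. The series held 17 ChIP libraries, a pair for each list except a single library for Gfi1, and 12 input libraries. The members of a pair were different clones of a line, but each list was called on their merged reads, so no value has a replicate error. These are stem cell cultures with forced expression rather than hair cells, no list without doxycycline was analysed here, and transcript levels that could check cell identity were not measured in these libraries.

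A tip link joins neighbouring stereocilia of a hair cell and pulls on the transduction channel when the bundle is deflected. Its upper part is made by cadherin 23 (Cdh23) and its lower part by protocadherin 15 (Pcdh15). Harmonin (Ush1c) and Sans (Ush1g) are scaffold proteins at the upper anchor, and loss of any of these proteins causes Usher syndrome, a combined loss of hearing and sight. Tmc1 and Tmc2 form the channel pore, Tmie is an essential partner of the channel, Cib2 binds the Tmc proteins, and clarin 1 (Clrn1) is a membrane protein of the bundle and of the hair cell synapse. Atoh1 is a basic helix-loop-helix factor that binds E-box sequences, Pou4f3 is a POU homeodomain factor that binds AT-rich sequences, and Gfi1 is a zinc-finger repressor; all are required for hair cells to develop or survive.

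Every gene had at least 1 kept summit in some list, and the number per list ranged from 3 to 36. The Atoh1 lists held 36 summits at the 9 genes in iGPA, 14 in iP+A, 20 in iG+A and 13 in iAtoh1. The Pou4f3 lists held 20 in iGPA, 13 in iP+A, 28 in iG+P and 19 in iPou4f3, and the Gfi1 list held 3. The iGPA Atoh1 count was thus the highest, but this list was also 1.69 times as long as that of iAtoh1, with 26216 against 15548 summits on the autosomes and chromosome X. As a share of its list, the iGPA Atoh1 count was 1.64 times that of iAtoh1, with an exact 95% interval of 0.851 to 3.37 that covers counting error only. The other ratios of shares within a factor lay between 0.885 and 1.86, and each of their intervals also included 1.

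Cdh23 held the most summits, 46 of the 166, followed by Ush1g with 37 and Tmc2 with 32. Pcdh15 held 17 in the longest window of the set, Cib2 and Tmie 11 each, Tmc1 5, Clrn1 4 and Ush1c 3. Cdh23 and Cib2 had more Atoh1 than Pou4f3 summits, with 33 against 13 and 9 against 2. Ush1g and Tmc2 had more Pou4f3 summits, with 24 against 12 and 21 against 9. Clrn1 had summits of Atoh1 only.

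**Figure D1:**
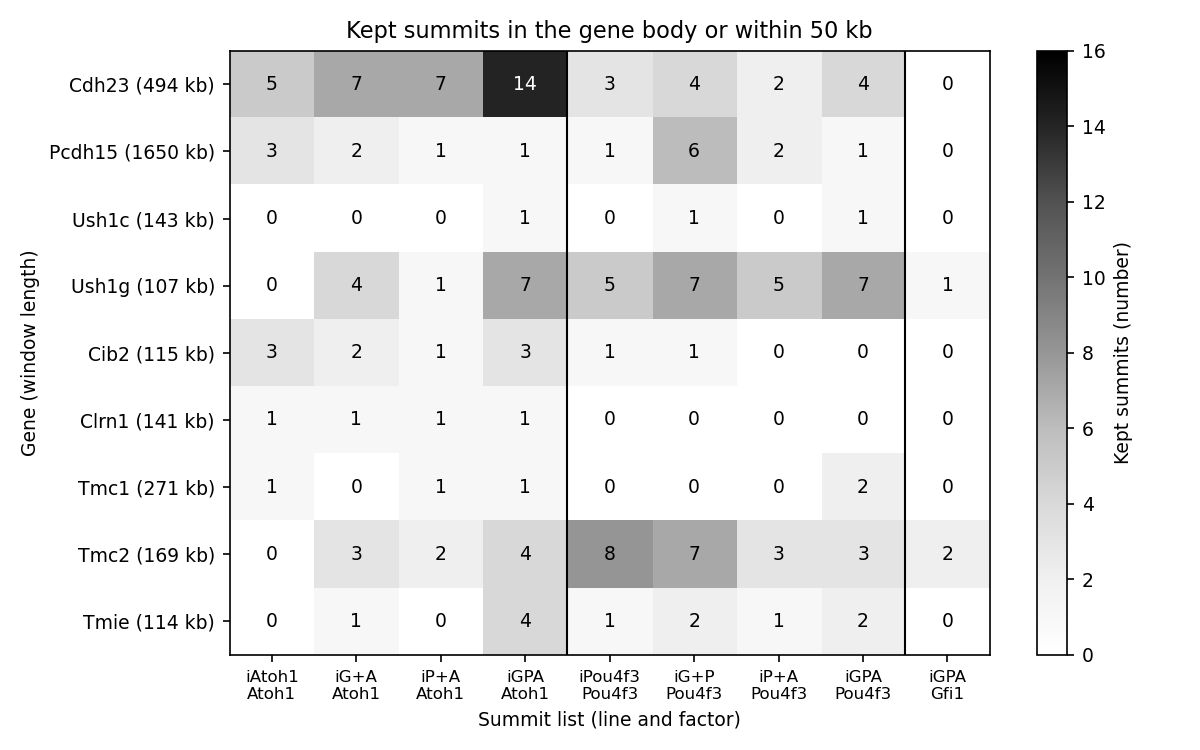
Numbers of kept summits in the body of each gene or within 50 kb of it (rows, with window length) in each of the 9 lists (columns, by line and factor), with darker cells for higher counts. Cdh23 carries 14 Atoh1 summits in iGPA, Ush1g and Tmc2 carry most of the Pou4f3 summits, and Pcdh15 has at most 6 in a window of 1650.4 kb.

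Because the windows differed from 106.9 kb at Ush1g to 1650.4 kb at Pcdh15, counts were set against the density of summits in the merged windows of all protein-coding genes. That density was applied to every window in proportion to its length, and no density of genes of like length was computed. Over the 3.21 Mb of the 9 genes the density was 0.457 to 0.820 times that of all gene windows in the 8 Atoh1 and Pou4f3 lists, and 0.592 times in the Gfi1 list. The upper 95% Poisson limit was under 1 in 6 of these 8 lists, and exceptions were iGPA Atoh1 (0.820, interval 0.574 to 1.13) and iGPA Pou4f3 (0.710, interval 0.434 to 1.10). This depended on the base and on the peaks used: the limit was under 1 in 0 of 8 lists against the density of whole chromosomes, where iGPA Atoh1 was at 1.13, in 0 of 8 with peaks under a −log10 p of 10 left out, and in 8 of 8 with all called peaks. Pcdh15 makes up more of this length than the other genes together. Without Pcdh15 the ratio was 1.64 in iGPA, 0.875 in iP+A, 1.08 in iG+A and 0.817 in iAtoh1 for Atoh1. For Pou4f3 it was 1.39 in iGPA, 0.863 in iP+A, 0.896 in iG+P and 1.04 in iPou4f3. Only the iGPA Atoh1 interval, 1.14 to 2.28, then lay above 1, and it overlapped the intervals of the other 3 Atoh1 lists.

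**Figure D2:**
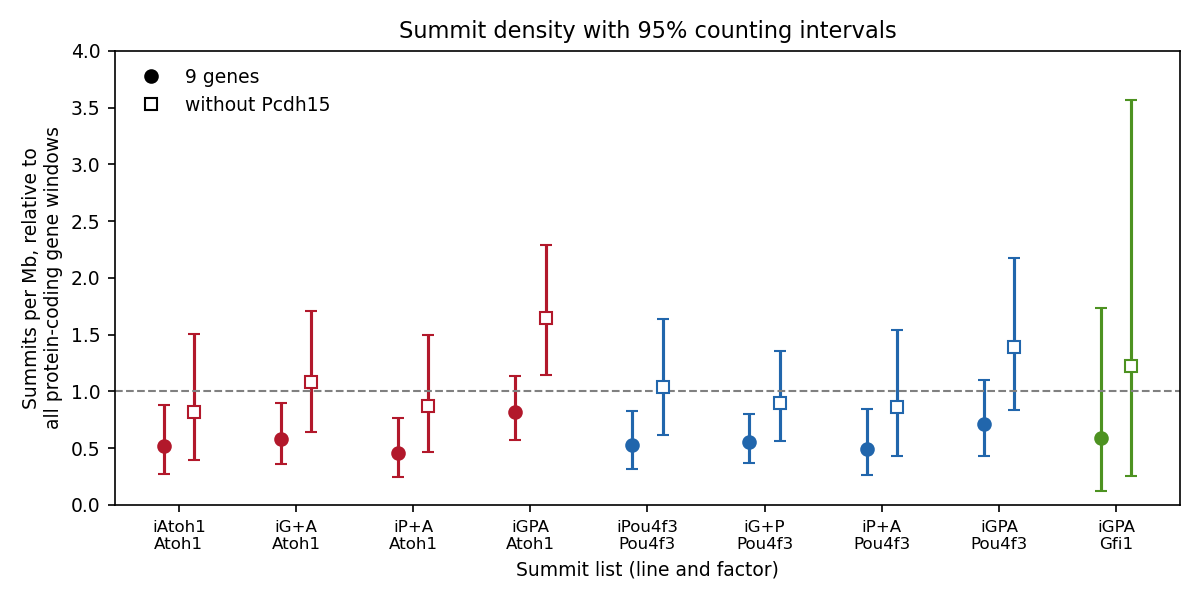
Summits per Mb in the windows of the genes divided by that in the windows of all protein-coding genes, for each list (horizontal axis), with all 9 genes (filled circles) and without Pcdh15 (open squares). Bars are 95% Poisson intervals of the count, which leave out replicate error. With Pcdh15 all 9 values lie under 1, and without it they lie between 0.817 and 1.64.

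Counting genes instead of summits gave numbers near those of other genes. In the Atoh1 lists 9 of the 9 genes had a summit in iGPA (72.2% of all protein-coding genes did), 7 in iP+A (62.7%), 7 in iG+A (65.8%) and 5 in iAtoh1 (53.1%). In the Pou4f3 lists the numbers were 7 in iGPA (63.2%), 5 in iP+A (58.8%), 7 in iG+P (76.7%) and 6 in iPou4f3 (72.8%), and the Gfi1 list had 2 (23.2%). Adding up, for each of the 9 genes, the share of genes in its window-length class that had a summit gave 5.06 genes for iAtoh1 Atoh1, 6.82 for iGPA Atoh1 and 6.28 for iGPA Pou4f3. The classes were windows of up to 150 kb, 150 to 300 kb and over 300 kb. The starts of all annotated transcripts were used, which number 17 for Cdh23, 36 for Pcdh15 and 1 for Ush1g, so that the longest genes of the set have the most. Close to these starts, 2 genes (Cdh23 and Ush1g) had an Atoh1 summit within 5 kb of an annotated start in any list, against 45.4% of all genes. A Pou4f3 summit lay within 5 kb of a start of 4 genes (Cdh23, Ush1c, Ush1g and Cib2), against 45.1%, and a Gfi1 summit within 5 kb of a start of 1 gene (Ush1g), against 6.65%.

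Of the 77 sites 41 lay in the body of a gene of the set, and for 32 a start of that gene was the nearest start of any annotated gene. Atoh1 lists alone gave 36 sites, Pou4f3 lists alone 27, 13 had summits of both factors, and 1 had Pou4f3 and Gfi1. Of the sites 49.4% were found in 1 list only, against 46.9% of 78333 sites of the series, and 19.5% were found in 4 or more lists, against 20.4%. The height of a peak is given below as the fold enrichment computed by the authors' peak caller, the fragments at the summit over the local background with 1 added to each. Values in different lists are set side by side, since they depend on the depth of each merged library.

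**Figure D3:**
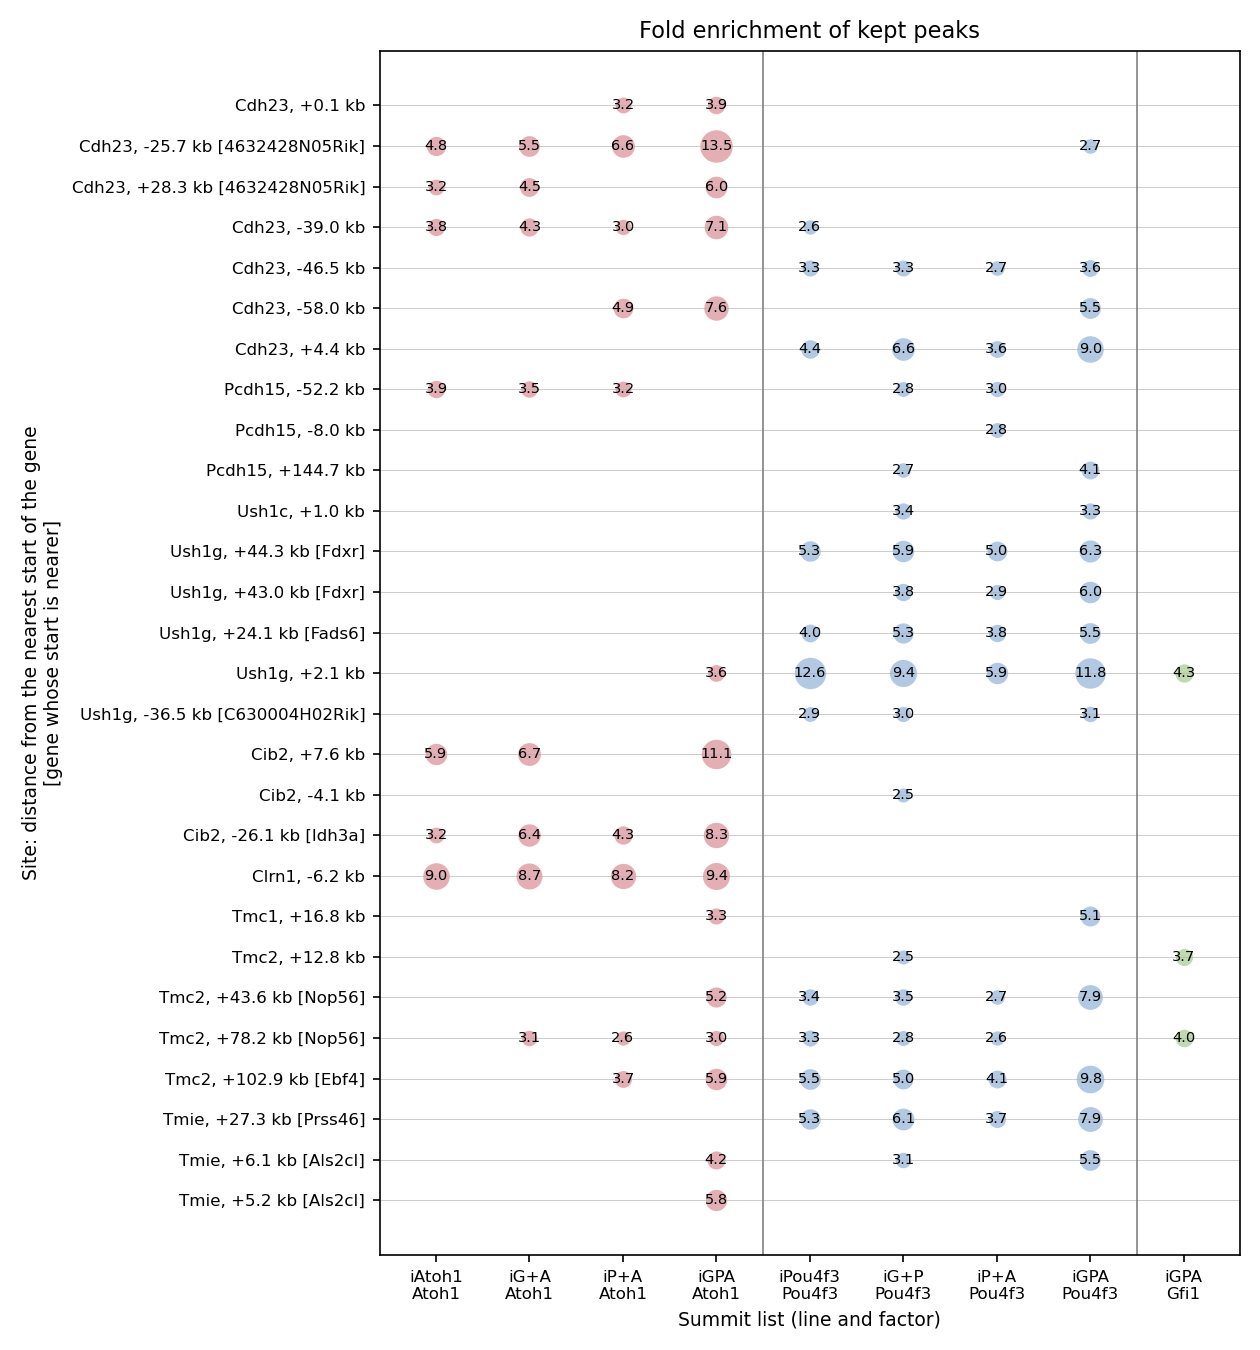
Fold enrichment (printed, with circle area in proportion) of the kept peaks at the sites found in 3 or more lists or named by the selection rule, 1 site left out (rows), in each list (columns), with Atoh1 in red, Pou4f3 in blue and Gfi1 in green. Row names give the distance from the nearest annotated start of the gene, positive downstream, and in brackets the gene whose start is nearer. The Clrn1 site has Atoh1 peaks of similar height in all 4 lists, while the sites within Ush1g and Tmc2 (43.6 kb from its start) have Pou4f3 peaks in all 4 lists and an Atoh1 peak in iGPA alone.

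Cdh23 (chromosome 10, 59765496 to 60159238 on the minus strand, mm9) had the most summits of the set. Its 46 summits formed 21 sites, 17 of them within the gene. A start of Cdh23 was the nearest for 11 of the 21, and the others were nearer to a start of 4632428N05Rik, Psap or AC155640.2. With all these sites included, the Atoh1 count of Cdh23 was 14 in iGPA, 7 in iP+A, 7 in iG+A and 5 in iAtoh1. In iGPA this was 2.07 times the number for a window of this length at the density of all genes (95% Poisson interval 1.13 to 3.47). In the other Atoh1 lists the ratio was 1.29 to 1.48, and in the Pou4f3 lists 0.494 to 0.922, with intervals that included 1. The iGPA interval overlapped those of the other Atoh1 lists. Overlap alone does not decide whether the counts differ, and no ratio between lists was computed for Cdh23, so the higher count was not tested.

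The site with the highest fold enrichment at Cdh23 lay in an intron, 274 bp downstream of the start of the gene 4632428N05Rik, which is contained within Cdh23. Its Atoh1 fold enrichment was 13.5 in iGPA, 6.56 in iP+A, 5.47 in iG+A and 4.76 in iAtoh1, and a Pou4f3 peak of 2.75 was present in iGPA only. The iGPA value was among the highest 1.64% of its list, and the iAtoh1 value among the highest 11.2%. The intronic site 38964 bp upstream of the nearest Cdh23 start was also in all 4 Atoh1 lists, at 7.11 in iGPA, 3.01 in iP+A, 4.27 in iG+A and 3.79 in iAtoh1, with a Pou4f3 peak of 2.64 in iPou4f3.

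At other Cdh23 sites the lists differed by line. The intronic site 57997 bp upstream of the nearest start had Atoh1 peaks of 4.95 in iP+A and 7.63 in iGPA and a Pou4f3 peak of 5.53 in iGPA, and no peak was called there in iAtoh1 or iG+A. Atoh1 was thus found there only in the lists of lines that also expressed Pou4f3. No Pou4f3 peak was called there in iP+A, iG+P or iPou4f3, however. The site 4416 bp downstream of an annotated start near the 5′ end was a Pou4f3 site, at 9.03 in iGPA, 3.62 in iP+A, 6.57 in iG+P and 4.40 in iPou4f3, with no Atoh1 peak. A second site of all 4 Pou4f3 lists, 46498 bp upstream of the nearest start, was lower, at 2.72 to 3.64. The site nearest to any Cdh23 start, 147 bp from the start of a short transcript near the 3′ end, had Atoh1 peaks of 3.23 in iP+A and 3.94 in iGPA. No Gfi1 summit was listed at Cdh23.

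**Figure D4:**
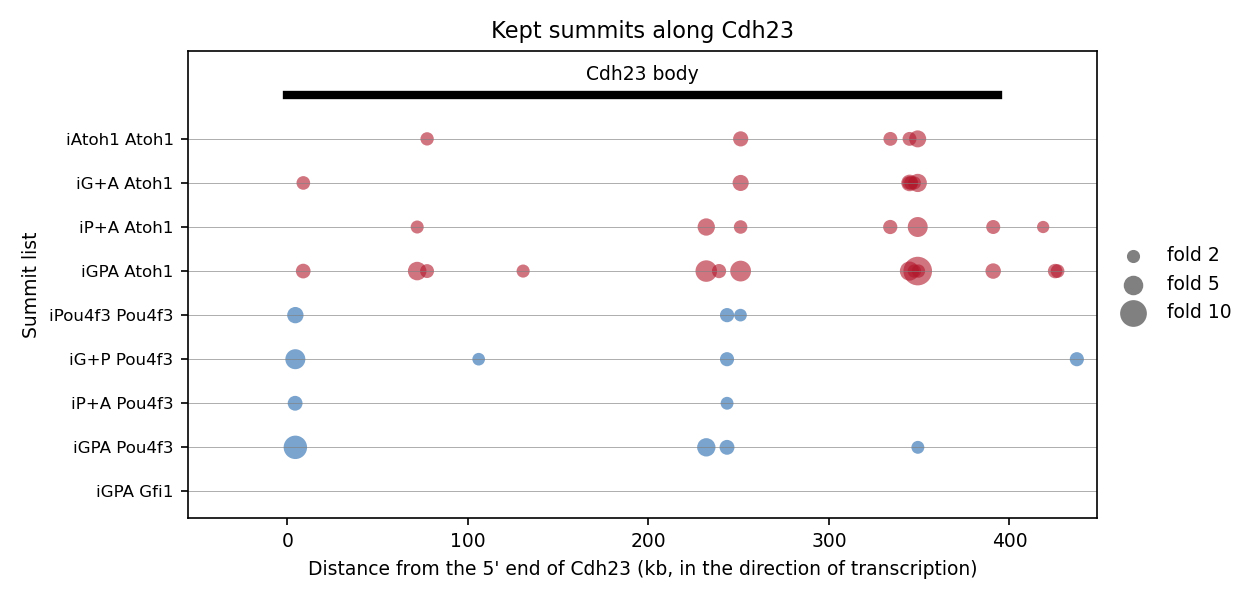
Positions of kept summits along Cdh23, as distance from its 5′ end in kb in the direction of transcription (horizontal axis), in each list (rows), with circle area in proportion to fold enrichment. Atoh1 (red) is spread over the gene with its highest peak of 13.5 in iGPA toward the 3′ end, and Pou4f3 (blue) recurs 4416 bp from an annotated start near the 5′ end in all 4 lists.

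The sequences of 3 Cdh23 sites show how their letters differ. Each is the 100 bp around the highest summit, plus strand of mm9, with capitals for matches to the E-box hexamer CAGATG, to its variant with the letters CAGCTG or its variant with the letters CATATG, to the Pou4f sequence ATAATTAAT with at most 1 mismatch or to the Gfi1 sequences AATCACTGC and AATCACAGC, all on either strand. The first belongs to the site in most lists, and the other 2 were chosen after their values were seen, as a site of Atoh1 with Pou4f3 and a site of Pou4f3 alone.
Cdh23 at the 4632428N05Rik start, chr10:59809994-59810093: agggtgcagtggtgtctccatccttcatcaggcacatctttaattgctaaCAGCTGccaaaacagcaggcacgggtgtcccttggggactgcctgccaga
Cdh23 intron with Atoh1 and Pou4f3, chr10:59927148-59927247: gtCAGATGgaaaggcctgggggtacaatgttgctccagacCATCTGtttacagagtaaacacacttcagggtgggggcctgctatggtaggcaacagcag
Cdh23 intron with Pou4f3 only, chr10:60154772-60154871: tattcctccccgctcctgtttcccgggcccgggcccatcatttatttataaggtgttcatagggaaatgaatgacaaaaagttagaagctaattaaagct
The site with both factors held 2 E-box hexamers in the 100 bp, and 4 in 250 bp, as many as 2.88% of all Atoh1 sites did. The Pou4f3 site had no match to the Pou4f sequence in this window.

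Pcdh15 (chromosome 10, 72562090 to 74112482, plus strand), the lower strand of the tip link, was sparsely occupied against the density of all gene windows. Whether other genes of such length were as sparse was not tested. Of all genes with windows over 300 kb, 86.7% had an iGPA Atoh1 summit. Its Atoh1 summits numbered 1 in iGPA, 1 in iP+A, 2 in iG+A and 3 in iAtoh1, and its Pou4f3 summits 1 in iGPA, 2 in iP+A, 6 in iG+P and 1 in iPou4f3. These were 0.0442 to 0.231 times the numbers at the density of all gene windows, and the upper 95% limit was at most 0.675 in each of these 8 lists. The iGPA Atoh1 value was the lowest, 1 summit where 22.6 would match that density (interval of the ratio 0.00112 to 0.246). All 12 sites lay in introns, 10 of them in 1 list only, and no fold enrichment exceeded 4.08. The only site in more than 2 lists, 52208 bp upstream of the nearest start, had Atoh1 peaks of 3.91 in iAtoh1, 3.47 in iG+A and 3.20 in iP+A, and Pou4f3 peaks of 2.85 in iG+P and 2.99 in iP+A. It was in neither iGPA list. The site with the highest value was a Pou4f3 site of iG+P (2.74) and iGPA (4.08), 144652 bp downstream of a start. In the iGPA Atoh1 list the intervals of Cdh23 and Pcdh15 did not overlap. The sequence at the site in most lists held 1 E-box hexamer.
Pcdh15 intron, chr10:73232357-73232456: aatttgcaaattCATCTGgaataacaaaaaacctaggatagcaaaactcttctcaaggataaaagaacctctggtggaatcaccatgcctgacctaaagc

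Among the scaffold genes of the upper anchor, Ush1g was densely occupied against the density of all gene windows and Ush1c was not. Genes with windows as short as that of Ush1g were not compared. Ush1g (chromosome 11, 115176506 to 115183355, minus strand) had Pou4f3 summits in a window of 106.9 kb that numbered 7 in iGPA, 5 in iP+A, 7 in iG+P and 5 in iPou4f3, or 4.15 to 7.46 times the density of all gene windows, with lower 95% limits of 1.36 to 3.00. Its Atoh1 summits numbered 7 in iGPA, 1 in iP+A, 4 in iG+A and 0 in iAtoh1. Most of this lay outside the gene: 14 of its 15 sites were in the flanks and nearer to the start of another gene, among them Fdxr, Fads6, Otop2 and C630004H02Rik.

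The 1 site within Ush1g lay in its intron, 2103 bp downstream of its start, where Otop2 is also annotated. Pou4f3 fold enrichment there was 11.8 in iGPA, 5.89 in iP+A, 9.41 in iG+P and 12.6 in iPou4f3. The iPou4f3 value was among the highest 1.69% of its list and the iG+P value among the highest 1.84%. In iGPA this was also a site of Atoh1 (3.57) and of Gfi1 (4.28), the only site at the 9 genes listed for all of the factors in that line. No Atoh1 peak was called there in iAtoh1, iG+A or iP+A. That it was the only one depends on which peaks were kept. The Tmc2 flank site at the Nop56 start was listed in iGPA for Atoh1 (2.95) and Gfi1 (3.96). A Pou4f3 peak of 3.06 was called there in iGPA but left out of the summit list. The sequence of the Ush1g site is shown because it was listed for all of the factors.
Ush1g intron, chr11:115181202-115181301: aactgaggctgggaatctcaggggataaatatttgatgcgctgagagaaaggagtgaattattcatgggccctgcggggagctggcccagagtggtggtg
The sequence held no match to any of the sequences searched.

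Ush1c (chromosome 7, 53450720 to 53493873, minus strand) had 3 summits. A Pou4f3 site in its intron, 1011 bp downstream of its start, was listed in iG+P (3.39) and iGPA (3.35), and not in iPou4f3 or iP+A. An Atoh1 peak of 2.95 in iGPA lay in the downstream flank, 1798 bp upstream of a start of Abcc8.

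Within Cib2 and Clrn1 Atoh1 was the only factor with a summit, at 1 site in each gene. Cib2 (chromosome 9, 54392601 to 54408025, minus strand) had an Atoh1 site in its intron, 7551 bp downstream of its start, at 5.86 in iAtoh1, 6.68 in iG+A and 11.1 in iGPA. These were among the highest 5.38%, 4.96% and 2.97% of their lists. No peak of any factor was called there in iP+A, nor for Pou4f3 in any line. A flank site 132 bp upstream of a start of Idh3a, a subunit gene of a mitochondrial dehydrogenase, was in all 4 Atoh1 lists at 8.26 in iGPA, 4.30 in iP+A, 6.41 in iG+A and 3.18 in iAtoh1. The summit nearest to the Cib2 start was a Pou4f3 peak of 2.52 in iG+P, 4097 bp upstream.

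Clrn1 (chromosome 3, 58647950 to 58689262, minus strand) had 1 site, in an intron 6234 bp upstream of its nearest annotated start. Atoh1 fold enrichment there was 9.35 in iGPA, 8.18 in iP+A, 8.68 in iG+A and 9.04 in iAtoh1, from 75, 75, 64 and 73 fragments recovered at the summit in that order. It was the most even of the 4 sites found in all Atoh1 lists. In iAtoh1 this value was among the highest 1.20% of the list, and in iGPA among the highest 4.69%. No Pou4f3 or Gfi1 summit was listed in the window, and the nearest Pou4f3 summit to a Clrn1 start was 95159 bp away. The sequence at this site differed from the others in its number of E-box hexamers.
Clrn1 intron, chr3:58675903-58676002: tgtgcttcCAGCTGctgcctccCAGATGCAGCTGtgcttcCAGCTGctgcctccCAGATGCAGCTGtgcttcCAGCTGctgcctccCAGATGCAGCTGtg
Cib2 intron, chr9:54400424-54400523: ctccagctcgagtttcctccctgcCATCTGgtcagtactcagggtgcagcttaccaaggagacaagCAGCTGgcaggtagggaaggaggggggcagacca
Cib2 flank at the Idh3a start, chr9:54434106-54434205: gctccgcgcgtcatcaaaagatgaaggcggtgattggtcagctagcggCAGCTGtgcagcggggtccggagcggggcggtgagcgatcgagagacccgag
The Clrn1 sequence repeated itself, with 70.6% of letters in 250 bp identical to those 32 bp further on, and held 9 E-box hexamers in 100 bp and 14 in 250 bp. Only 12 of 44312 Atoh1 sites of the series (0.0271%) held as many, and the other Atoh1 sites at the 9 genes held at most 4. The iGPA Atoh1 site of Pcdh15 also repeated itself, with 67.0% of letters identical to those 44 bp further on, and held 4. Per the study's methods reads were kept at a mapping quality of 40 or more, and how either repeat bears on its peak was not tested. The Cib2 intronic sequence, chosen after its values were seen, held 2 E-box hexamers, of which 1 was part of a match to the longer E-box AtEAM. AtEAM is the consensus described for Atoh1, and was matched here as a strict letter pattern that differs from the motif search of the paper.

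**Figure D5:**
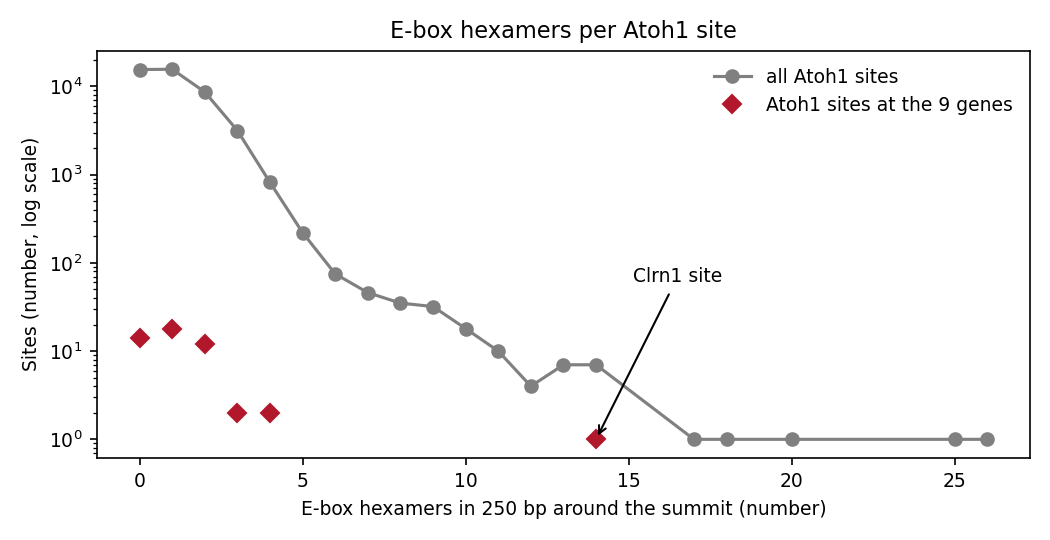
Numbers of Atoh1 sites (vertical axis, log scale) by the number of E-box hexamers in the 250 bp around the summit (horizontal axis), for all 44312 Atoh1 sites (grey) and the 49 at the 9 genes (red). The Clrn1 site holds 14, and the other 48 hold 0 to 4.

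Within each of the 3 channel genes, 1 intronic site had both an Atoh1 and a Pou4f3 peak in iGPA and was in no other Atoh1 list. The site within Ush1g was of this kind too. These 4 were among the 36 iGPA Atoh1 sites of the set, and the share of such sites in the series was not computed. Tmc1 (chromosome 19, 20857948 to 21028692, minus strand) had 3 intronic sites and 5 summits. The site 16768 bp downstream of a start had an Atoh1 peak of 3.32 and a Pou4f3 peak of 5.10 in iGPA and none in any other line. A second site, 52749 bp upstream of the nearest start, had Atoh1 peaks of 4.15 in iAtoh1 and 3.33 in iP+A and no summit in the iGPA lists. The third, 49117 bp upstream of the nearest start, was a Pou4f3 peak of 3.20 in iGPA.

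Tmc2 (chromosome 2, 130020930 to 130090181, plus strand) had Pou4f3 summits that numbered 3 in iGPA, 3 in iP+A, 7 in iG+P and 8 in iPou4f3. In iPou4f3 this was 4.23 times the density of all gene windows (95% Poisson interval 1.83 to 8.33) and in iG+P 2.62 times (1.05 to 5.39). Of its 12 sites 9 lay in the flanks, near the starts of Snrpb, Nop56 and Ebf4. Within the gene, the intronic site 43607 bp downstream of a start had Pou4f3 peaks of 7.86 in iGPA, 2.72 in iP+A, 3.50 in iG+P and 3.45 in iPou4f3. It had an Atoh1 peak of 5.17 in iGPA and none in the other 3 Atoh1 lists. A start of Nop56 was nearer to this site, 34405 bp away. The site 12796 bp downstream of a start was listed for Gfi1 in iGPA (3.74, from 16 fragments) and for Pou4f3 in iG+P (2.52). In the flanks, a site 3390 bp downstream of a start of Ebf4 had Pou4f3 peaks of 9.76 in iGPA, 4.08 in iP+A, 5.03 in iG+P and 5.47 in iPou4f3 and Atoh1 peaks of 3.66 in iP+A and 5.91 in iGPA. The site in the most lists, 7 of 9, lay 166 bp downstream of a start of Nop56, a nucleolar protein gene, with values of only 2.58 to 3.96. The sequences of these 3 sites differ in their matches, and the intronic site was chosen after its values were seen.
Tmc2 intron, chr2:130065711-130065810: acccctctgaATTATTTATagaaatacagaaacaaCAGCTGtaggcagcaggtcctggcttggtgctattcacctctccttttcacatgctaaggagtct
Tmc2 flank near Ebf4, chr2:130125015-130125114: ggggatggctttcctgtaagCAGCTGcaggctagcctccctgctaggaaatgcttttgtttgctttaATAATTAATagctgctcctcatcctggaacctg
Tmc2 flank at the Nop56 start, chr2:130100344-130100443: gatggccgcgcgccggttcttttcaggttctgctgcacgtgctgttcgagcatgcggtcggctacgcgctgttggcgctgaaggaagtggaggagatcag
The intronic and the Ebf4 sites each held 1 Pou4f match and 1 E-box hexamer, and the match at Ebf4 had no mismatch. The site at Nop56 held none of the sequences searched.

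Tmie (chromosome 9, 110768215 to 110782617, minus strand) had 11 summits in 6 sites. A site within its intron, 6060 bp downstream of its start, had Pou4f3 peaks of 3.06 in iG+P and 5.46 in iGPA and an Atoh1 peak of 4.16 in iGPA. A neighbouring intronic site, 5188 bp from the start, was an Atoh1 peak of 5.78 in iGPA alone. Both intronic sites were nearer to a start of Als2cl, at 5817 and 4945 bp in turn. For none of the 6 sites was the Tmie start the nearest. All 4 Tmie sites with an iGPA Atoh1 peak were in no other Atoh1 list. One of them, a peak of 3.10 in the flank 10606 bp upstream of the start, had a close neighbour. That was a separate iG+A Atoh1 peak of 2.94, 10037 bp upstream of the start. The highest site was a Pou4f3 site in the downstream flank, 3297 bp downstream of a start of Prss46, at 7.86 in iGPA, 3.74 in iP+A, 6.13 in iG+P and 5.35 in iPou4f3.

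Comparison of the lists showed which sites were shared. Of the 13 iAtoh1 Atoh1 sites at these genes, 7 were also in the iGPA Atoh1 list (53.8%, against 54.4% of all iAtoh1 sites), and they were 19.4% of the 36 iGPA sites, against 32% in the series. The iGPA Atoh1 sites were shared with iG+A for 12 of 36 (33.3%, against 42.3%) and with iP+A for 10 of 36 (27.8%, against 42.7%). Accordingly 18 of the 36 were in no other Atoh1 list (50%, exact interval 32.9% to 67.1%, against 36.2%). The interval includes the series share, so an excess over other genes was not detectable with this number of sites. These 18 were 5 at Cdh23, 4 at Ush1g, 4 at Tmie and 1 each at Pcdh15, Ush1c, Cib2, Tmc1 and Tmc2. Their Atoh1 fold enrichment in iGPA ran from 2.71 to 5.78, where the median of that list was 3.45. The 5 at Cdh23 had values of 2.83 to 3.45, none of them above that median. Such weak peaks are near the limit of calling. At all 7 sites shared by iAtoh1 and iGPA the fold enrichment was higher in iGPA, as at 73.2% of such sites in the series.

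Pou4f3 sites were shared to a similar degree as elsewhere. Of the 19 iPou4f3 sites 10 were also in iGPA (52.6%, against 49.8%), and of the 20 iGPA Pou4f3 sites 10 were in iPou4f3 (50%, against 59.2%), 15 in iG+P (75.0%, against 71.9%) and 10 in iP+A (50%, against 49.1%). In no other Pou4f3 list were 5 of the 20 (25.0%, against 18.1%). At 9 of the 10 sites shared by iPou4f3 and iGPA the value was higher in iGPA, against 73.4% in the series.

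Within iGPA 8 sites had both an Atoh1 and a Pou4f3 peak. They were 22.2% of the Atoh1 sites (against 16% in the series) and 40% of the Pou4f3 sites (exact interval 19.1% to 63.9%, against 21.8%), from lists called against the same input libraries. Of these 8, 2 were at Cdh23, 2 at Ush1g, 2 at Tmc2, 1 at Tmc1 and 1 at Tmie. At 7 of the 8, all but the Cdh23 site at the start of 4632428N05Rik, Atoh1 was in neither the iAtoh1 nor the iG+A list (87.5%, exact interval 47.3% to 99.7%). The same held for 68.7% of all sites of both factors in iGPA. Among the 28 iGPA Atoh1 sites without Pou4f3 it held for 16 (57.1%, against 46.6%). The intervals of both groups overlapped.

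Across all sites of the set, an E-box hexamer lay in the 250 bp around the summit at 35 of 49 Atoh1 sites (71.4%, exact interval 56.7% to 83.4%), against 64.9% of all Atoh1 sites. In the 100 bp window it was 34 of 49 (69.4%, exact interval 54.6% to 81.7%), against 53.2%, so the interval included the series share in the wider window and lay above it in the narrower. AtEAM, matched as a strict letter pattern, lay in the 250 bp at 8 (16.3%), against 15.0%. The paper, by its own motif search, reports AtEAM in most Atoh1 peaks of iGPA and in a smaller share of those unique to iAtoh1. The shares given here are therefore comparable with each other only, and do not measure how many Atoh1 sites carry the motif of the paper. The Pou4f sequence with at most 1 mismatch lay at 23 of 41 Pou4f3 sites (56.1%, exact interval 39.7% to 71.5%), against 38.0% of all, but in the 100 bp window at 14 (34.1%), against 28.8%. The interval lay above the series share in the wider window and included it in the narrower, where it ran from 20.1% to 50.6%. None of the 3 Gfi1 sites held a Gfi1 sequence, which 6.88% of all Gfi1 sites did.

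Other genes of the same machinery were counted in this way too: Myo7a, Gpr98 (Adgrv1), Whrn, Pdzd7, Vezt, Lhfpl5, Tomt, Cib3 and Clrn2. Of these 9 genes 9 had an Atoh1 summit in iGPA (72.2% of all protein-coding genes did), 6 in iP+A (62.7%), 8 in iG+A (65.8%) and 5 in iAtoh1 (53.1%). A Pou4f3 summit was found at 5 in iGPA (63.2%), 3 in iP+A (58.8%), 6 in iG+P (76.7%) and 8 in iPou4f3 (72.8%). The Gfi1 list had summits at 2, Whrn and Tomt (23.2%). The number of Atoh1 summits was higher in iGPA than in iAtoh1 at 5 genes, equal at 2 and lower at 2. The iGPA Atoh1 list was 1.69 times as long, and the share of all genes with more summits in iGPA was not computed. The counts below are not corrected for list length. Myo7a, the motor protein of the upper tip link anchor, had 8 Atoh1 summits in iGPA, 1 each in iG+A and iP+A, none in iAtoh1 and no Pou4f3 summit. Cib3, a relative of Cib2, had 5 in iGPA and none in the other Atoh1 lists. Pdzd7 had 7 in iGPA against 3 in iAtoh1, Tomt 3 against 0 and Vezt 2 against 0. Lhfpl5 had 3 in both lists and Gpr98 1 in both, while Whrn had 4 in iGPA against 5 in iAtoh1 and Clrn2 2 against 3.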

How the data were processed

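The data are 9 ChIP-seq peak lists, each of 1 factor in 1 line. Per the study's methods, reads were trimmed with Trimmomatic, aligned to mm9 with Bowtie 2, filtered for duplicates, mapping quality and blacklisted regions, and MACS 2 then called peaks on the pooled ChIP replicates of a line, with its pooled inputs as control. The deposited fold enrichment is a ratio computed by the authors, and the deposited −log10 p is that of the peak caller. The summit lists name the peaks the authors kept, by a filter not given in the sources used here, and other scores of the files were not used. Read totals were not used here, so sequencing depth is unknown. Fragments at a summit were recovered as the whole number that gave both deposited values within 0.001, for 166 of 166 summits, with a median local background of 5.87 to 8.30 fragments for Atoh1 and Pou4f3 lists and 3.55 for Gfi1.

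Genes came from GENCODE M1 on NCBIM37, the assembly of mm9, and no peak ran past a chromosome end. A gene body spans all annotated transcripts, and overlapping windows were merged for densities, on autosomes and chromosome X. Intervals are exact 95% Poisson or Clopper-Pearson limits. They cover counting error only, and neighbouring summits are not independent. No p-value was computed, since sites are not replicates. Named at each gene were the site in most lists, that with the highest fold enrichment and that nearest to a start. Other sites were named after their values were seen. One site and one pathway gene that these choices name are not reported here, though the site stays in the counts. The 9 genes, the other pathway genes and the sequences searched were chosen with earlier results of these data known. Steps were tested on simulated data. Alternatives changed the window, peaks kept, list length, background genes, joining width and pattern window. Python 3.11.15, numpy 2.4.6, pandas 2.3.3, scipy 1.17.1 and matplotlib 3.10.9 were used.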

Additional observations from a re-analysis of the deposited data

Results flagged for a closer look

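Peaks that were called but left out of the summit lists were looked at separately, because above only the density with all called peaks included them. There were 11 such peaks at the 9 genes, beside 166 that were kept. They were 6.21% of the called peaks there, a lower share than the 24.0% of all called peaks of the series. Their fold enrichment was 2.41 to 3.34. They lay at 4 genes: 4 at Pcdh15, 4 at Tmc2, 2 at Tmc1 and 1 at Cib2. At Tmc1 they added iG+A Atoh1 (3.34) and iG+P Pou4f3 (2.63) peaks to the site 52749 bp upstream of the nearest start, and at the Nop56 start a Pou4f3 peak of 3.06 in iGPA. With that peak the Nop56 site had called peaks of all of the factors in iGPA, as the site within Ush1g did. None lay at the intronic sites of Cib2, Clrn1 or Ush1g.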

How the results depend on the processing

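No paired analysis was possible because each list was called on merged replicates, and for the same reason no replicate could be left out. The depth of the lists limits the counts: a weak peak in a shallow list can stay uncalled. The number of summits at the 9 genes moved by over 1.5 times in most lists with the window or the stringency. In gene bodies alone it was 20 in iGPA, 9 in iP+A, 11 in iG+A and 11 in iAtoh1 for Atoh1. For Pou4f3 it was 11 in iGPA, 6 in iP+A, 15 in iG+P and 6 in iPou4f3. The genes with a summit were then 4 in iG+A and 4 in iP+A for Atoh1, and the relative density in iPou4f3 was 0.216. The relative Atoh1 density was 0.650 in iAtoh1 and 0.610 in iGPA, with intervals that overlapped. With 10 kb flanks the Atoh1 lists had 22 in iGPA, 9 in iP+A, 11 in iG+A and 11 in iAtoh1. The Pou4f3 lists then had 11 in iGPA, 6 in iP+A, 16 in iG+P and 7 in iPou4f3. Genes with an Atoh1 summit were 4 in iG+A and 4 in iP+A, and the density in iPou4f3 was 0.227. With 100 kb flanks the Atoh1 lists had 57 in iGPA, 24 in iP+A, 32 in iG+A and 22 in iAtoh1 (at 8 genes). With peaks under a −log10 p of 10 left out, 16 Atoh1 summits were left in iGPA, 6 in iP+A, 6 in iG+A and 7 in iAtoh1, and 13 Pou4f3 summits in iGPA, 7 in iP+A, 8 in iG+P and 8 in iPou4f3. The Gfi1 list had 1, at 1 gene. The genes were then 3 in iG+A Atoh1 and 4 in iG+P Pou4f3. The relative density was 0.892 in iAtoh1, 0.849 in iGPA Atoh1 and 0.868 in iP+A Pou4f3. Of the iPou4f3 sites 87.5% were also in iGPA. With lists cut to their strongest 15568 peaks the numbers were 21 in iGPA Atoh1, 11 in iPou4f3 and 14 in iG+P Pou4f3. Without Pcdh15 the relative density was 1.64 in iGPA, 0.875 in iP+A and 1.08 in iG+A for Atoh1, and 1.39 in iGPA, 0.863 in iP+A, 0.896 in iG+P and 1.04 in iPou4f3 for Pou4f3. With each summit given to the gene of the nearest start, 4 genes had a summit in iP+A Atoh1 and 3 in iP+A Pou4f3. The share of Pou4f3 sites with a Pou4f match was 34.1% in 100 bp, against 28.8% of all Pou4f3 sites. With no mismatch in 250 bp it was 7.32% (exact interval 1.54% to 19.9%), against 6.56%. Using all called peaks, all annotated genes or whole chromosomes as the base moved no density outside its interval, but the upper limit was then under 1 in 8, 6 and 0 of the 8 Atoh1 and Pou4f3 lists in turn. It was under 1 in 7 with gene bodies alone, 8 with 10 kb and 4 with 100 kb flanks, 5 with lists of equal length, and 0 without Pcdh15 or with weaker peaks left out. Joining windows of 100 or 1000 bp moved none of the 10 shares outside their intervals.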
